A study of Mus musculus with 6 samples.

Results

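Transcripts of 10 genes that set whether a lymphocyte lives or dies were compared between recombining B lineage cells of the gut and of the bone marrow. The genes were chosen by symbol: the pro-survival proteins Bcl2, Bcl2l1 (BCL-XL) and Mcl1, the pore-forming effectors Bax and Bak1, the BH3-only proteins Bcl2l11 (BIM), Bbc3 (PUMA), Pmaip1 (NOXA) and Bid, and the caspase inhibitor Cflar (c-FLIP). Of these 10 genes, 9 were measured by 11 probe sets, among 19938 genes in all. Bax was not analysed here, because the platform's gene table pairs no probe set with its symbol. The cells came from the small intestinal lamina propria, the connective tissue under the gut epithelium, or from bone marrow, with 3 arrays per tissue. All mice were of the strain RAG2-GFP/129Sve, aged 17 to 25 days and kept under specific pathogen-free conditions, so that both tissues carried the same fluorescent Rag2 reporter and neither was treated. Each pool held sorted reporter-positive cells of several mice, 8 to 12 in each experiment, and fluorescence marks cells that recombine their receptor genes or did so a short time ago. The deposited values are log2 values from RMA, which corrects background, aligns arrays and summarises the probes of a set.

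Apoptosis in lymphocytes runs through mitochondria or through death receptors. On the mitochondrial route, BH3-only proteins bind and neutralise BCL2, BCL-XL and MCL1 or activate BAX and BAK, which open the outer mitochondrial membrane and release cytochrome c. On the receptor route, c-FLIP resembles caspase-8 without its protease activity and keeps it from being activated. In developing B cells, interleukin 7 and later the antigen receptor keep the pro-survival side supplied, and cells that fail to assemble a working receptor die in a process in which BIM takes part.

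Promoter windows are shown for Cflar, Bcl2l1, Mcl1, Bbc3 and Bcl2l11, in each case a window that holds a match to a pattern named below. RefSeq promoters of GRCm38.p6, 300 bases from 250 before to 50 after a start site, were at hand for 9 of the 10 genes, in 14 windows. Both strands were searched for GGG followed by 2 letters of any kind and TTTCC (the NF-kB type), GTAAACA (the FOXO type) and TATAAA, patterns chosen with the results known, and matches are in capitals. Of 32851 promoters of this length, 1.63% held the NF-kB pattern, 3.65% the FOXO pattern and 13.6% TATAAA. The windows are chr1:58711241-58711540 on the plus strand for Cflar, chr2:152830668-152830967 on the minus strand for Bcl2l1, chr3:95658471-95658770 on the plus strand for Mcl1, chr7:16309333-16309632 on the plus strand for Bbc3, and chr2:128125788-128126087 on the plus strand for Bcl2l11.
Cflar: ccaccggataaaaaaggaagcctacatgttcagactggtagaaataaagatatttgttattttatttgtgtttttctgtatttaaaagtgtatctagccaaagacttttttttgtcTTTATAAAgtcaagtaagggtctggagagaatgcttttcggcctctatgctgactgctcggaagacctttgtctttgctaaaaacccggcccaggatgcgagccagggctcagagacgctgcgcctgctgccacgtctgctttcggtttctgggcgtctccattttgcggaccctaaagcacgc
Bcl2l1: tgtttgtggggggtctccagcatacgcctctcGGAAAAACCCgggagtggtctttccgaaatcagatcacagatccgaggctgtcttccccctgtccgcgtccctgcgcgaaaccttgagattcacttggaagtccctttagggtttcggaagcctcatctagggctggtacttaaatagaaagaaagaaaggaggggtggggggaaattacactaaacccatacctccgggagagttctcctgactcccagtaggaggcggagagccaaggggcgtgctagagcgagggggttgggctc
Mcl1: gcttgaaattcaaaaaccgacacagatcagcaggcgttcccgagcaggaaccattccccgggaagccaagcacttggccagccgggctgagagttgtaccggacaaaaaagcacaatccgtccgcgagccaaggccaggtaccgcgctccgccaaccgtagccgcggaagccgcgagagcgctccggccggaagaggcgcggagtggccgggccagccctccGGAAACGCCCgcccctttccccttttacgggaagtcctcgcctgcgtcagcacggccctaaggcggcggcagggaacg
Bbc3: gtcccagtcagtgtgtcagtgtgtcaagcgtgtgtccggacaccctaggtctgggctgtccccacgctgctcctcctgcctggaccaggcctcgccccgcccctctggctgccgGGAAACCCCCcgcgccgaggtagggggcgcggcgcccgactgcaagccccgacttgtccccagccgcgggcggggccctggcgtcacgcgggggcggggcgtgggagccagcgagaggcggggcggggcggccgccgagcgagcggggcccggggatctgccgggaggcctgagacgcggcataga
Bcl2l11: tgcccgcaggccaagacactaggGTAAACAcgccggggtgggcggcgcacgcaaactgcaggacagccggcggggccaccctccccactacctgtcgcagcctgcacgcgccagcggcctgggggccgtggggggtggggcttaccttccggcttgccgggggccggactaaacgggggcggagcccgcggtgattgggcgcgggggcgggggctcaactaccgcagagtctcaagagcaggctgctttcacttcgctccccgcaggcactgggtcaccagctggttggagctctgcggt
The Cflar window held 2 overlapping matches of TATAAA, on opposite strands, and neither of the other patterns. The NF-kB pattern was found in 1 window each of Bcl2l1, Mcl1 and Bbc3, starting 218, 28 and 136 bases before the start site. The FOXO pattern was found in the Bcl2l11 window, 227 bases before the start, and in a further window of Bbc3 that is not printed. No 2 of the patterns overlapped in these windows. Of all 14 windows, 3 held the NF-kB pattern, 2 the FOXO pattern and 1 TATAAA. The other windows of Bcl2l1 and Bcl2l11, the last of Bbc3 and those of Bcl2, Bax, Bak1 and Bid held no match and are not printed. A match describes the letters only.

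The arrays of the lamina propria were not alike. Pools 1 and 2 correlated with the bone marrow arrays at 0.766 to 0.829 across genes and pool 3 at 0.954 to 0.966, and genes are not independent replicates. Genes at a middle to high bone marrow level lay lower in pools 1 and 2 as a whole. Among 1953 genes at a marrow level of 7 to 8, the median difference from the marrow mean was -1.02 in pool 1, -1.07 in pool 2 and -0.05 in pool 3. Among 5419 genes at a level of 5 to 6 it was 0.44, 0.40 and -0.02. Each gene is therefore given per pool, and its result with and without the pools that stand apart.

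No gene of the family passed the test between the tissues. Limma called 0 of the 9 at an adjusted p of 0.05, where 0% of all genes were called, although 13.7% of all genes had an unadjusted p under that value, among them Cflar and Bbc3. The 3 lamina propria pools all lay above the 3 marrow pools for Bbc3 and Pmaip1, and 14.8% of all genes did so. They all lay below for Cflar, as did 7.27% of all genes. The median difference of the 9 genes was 0.08 on the log2 scale, against 0.22 over all genes, with 5 positive and 4 negative differences. Of all genes, 67.6% had a positive difference. Spread between lamina propria pools exceeded that between marrow pools for 7 of the 9 genes, against 81.8% of all genes.

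**Figure D1:**
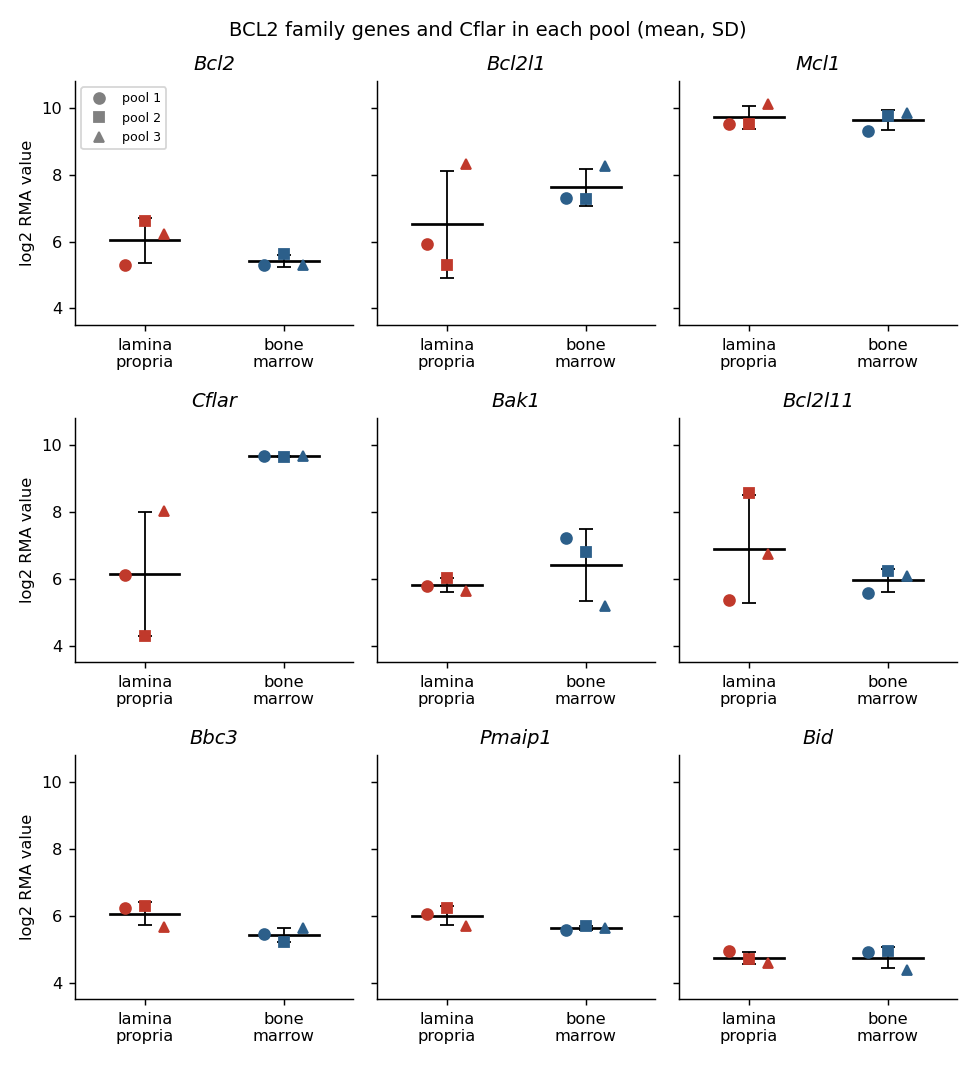
Log2 RMA values of the 9 measured genes (y axis) in the lamina propria pools (left, red) and bone marrow pools (right, blue) of each panel; symbols give the pool number, bars the mean and SD of 3 pools. Cflar lies lower in every lamina propria pool, at 4.30 to 8.03, than in the marrow, where its 3 values almost coincide at 9.64 to 9.67.

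Cflar, the inhibitor of caspase-8 activation, showed the widest gap between the tissues among the 9 genes. Its values were 6.10, 4.30 and 8.03 in lamina propria pools 1, 2 and 3, against 9.67, 9.64 and 9.67 in bone marrow pools 1, 2 and 3. Every lamina propria pool lay lower, and pool 2 lay furthest from the marrow. Lamina propria pools averaged 6.14 ± 1.87 and marrow pools 9.66 ± 0.02 (SD, n = 3 each). The log2 difference, lamina propria minus bone marrow here and below, was -3.52 (95% interval -5.42 to -1.61), with limma's adjusted p at 0.291. The value of 4.30 in pool 2 lay below the median of 5.47 over all probe sets of its array, where signal over background is small, so the size of the gap in that pool is uncertain. Without pool 2 the difference was -2.59. Among the 426 genes at the marrow level of 9 to 10 at which Cflar lies, the median difference was -1.03 in pool 1, -1.10 in pool 2 and 0.00 in pool 3. Cflar differed from its marrow mean by -3.56, -5.36 and -1.63 in these pools. Without lamina propria pool 3 the difference was -4.46 and passed (limma adjusted p = 0.0105), together with 12.1% of all genes called lower. With pool 3 as the lone lamina propria array it was -1.63, and any interval for it takes pool 3 to vary like the marrow pools. With estimated array weights, which count pool 3 least, Cflar, Bcl2l1 and Bbc3 passed, together with 16.9% of all genes called higher and 11.1% called lower.

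Size depended on the probe set, since Cflar has 3. The values above are those of probe set 10346562, which has the highest mean over all 6 arrays. It was brightest in the marrow, at 9.66 against 7.66 for set 10497931 and 7.12 for set 10346551. In the lamina propria it was not, at 6.14 against 6.66 for set 10497931. A choice by this mean can favour a set with a wide gap. Probe set 10346551 read 5.71, 4.81 and 6.53 in the lamina propria, against 6.73, 7.04 and 7.59 in the bone marrow, again with no overlap and a difference of -1.44 (95% interval -2.58 to -0.30, limma adjusted p = 0.436 over all probe sets). Probe set 10497931 read 5.51, 6.66 and 7.82 in the lamina propria, against 7.58, 7.56 and 7.85 in the bone marrow, a difference of -0.999 (95% interval -2.35 to 0.35). With this set, pool 3 lay inside the marrow range. Its pools differed from its marrow mean of 7.66 by -2.15, -1.01 and 0.16. Genes at a marrow level of 7 to 8 had medians of -1.02, -1.07 and -0.05, so this set lay below them in pool 1 only. Set 10346551, with a marrow mean of 7.12, differed by -1.41, -2.31 and -0.59, below these medians in each pool. The mean was lower in the lamina propria with each set. Where the probes of each set lie was not analysed here, so whether a set, 10497931 among them, also reads a similar sequence elsewhere is unknown, for the average of the sets too. The gene table lists 4 accessions for set 10346562, all of which it also lists for each of the other sets. Averaging the 3 sets gave -1.98 (limma adjusted p = 0.31).

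**Figure D2:**
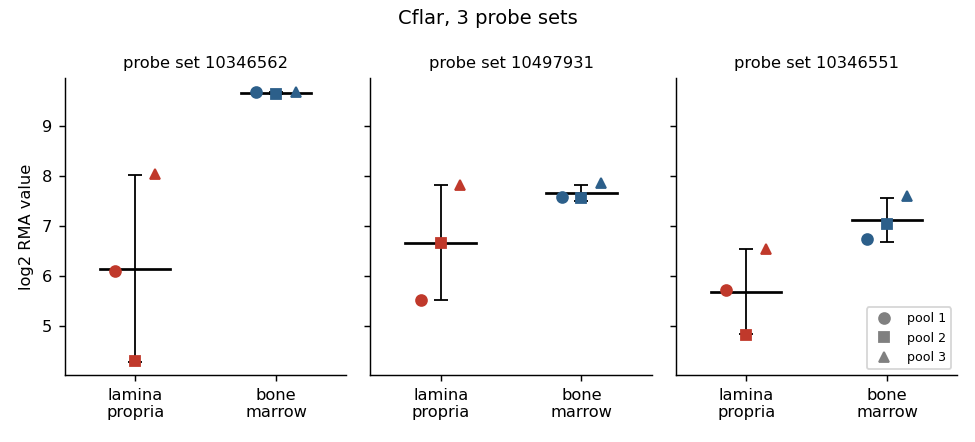
Log2 RMA values (y axis) of the 3 Cflar probe sets, lamina propria pools left and bone marrow pools right in each panel, with mean and SD of 3 pools. The set used for the gene, 10346562, has the widest gap (-3.52), and in set 10497931 lamina propria pool 3 lies within the marrow values.

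Bcl2l1 encodes BCL-XL, a guardian of the mitochondrial membrane that supports the survival of pre-B cells. It read 5.92, 5.29 and 8.33 in lamina propria pools 1, 2 and 3, against 7.30, 7.28 and 8.27 in the bone marrow pools. The lamina propria pools fell on both sides of the marrow, with pools 1 and 2 below all marrow pools and pool 3 just above them. Lamina propria pools averaged 6.52 ± 1.61 and marrow pools 7.62 ± 0.57 (SD, n = 3 each), and the difference was -1.10 (95% interval -2.85 to 0.64, limma adjusted p = 0.398). Without pool 3 the difference was -2.01 (limma adjusted p = 0.0223), together with 12.1% of all genes called lower. Pool 3 alone gave 0.72, so that the direction turned with the pool. Without lamina propria pool 2 the difference was -0.49. The value of 5.29 in that pool lay below the median of 5.47 over all probe sets of its array. Pools 1 and 2 lay 1.69 and 2.33 below the marrow mean, where genes of that level lay 1.02 and 1.07 below.

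Mcl1, a short-lived protein on which lymphocytes at most stages depend, was close in both tissues. Its values were 9.52, 9.52 and 10.10 in the lamina propria, against 9.31, 9.76 and 9.83 in the bone marrow. Pools 1 and 2 lay inside the marrow range and pool 3 above it. The difference was 0.08 (95% interval -0.53 to 0.68, limma adjusted p = 0.837). Mcl1 differed by -0.11 and -0.12 in pools 1 and 2 although genes of its level, the same 426 as for Cflar, lay about 1 log2 unit lower there. After cyclic loess, a scaling that removes such level-dependent shifts, the difference was 0.50 (95% interval 0.12 to 0.88, limma adjusted p = 0.349).

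Bcl2, the founding member of the family, read 5.29, 6.61 and 6.22 in the lamina propria, against 5.30, 5.61 and 5.31 in the bone marrow. Pools 2 and 3 lay above every marrow pool and pool 1 just below them. Lamina propria pools averaged 6.04 ± 0.68 and marrow pools 5.41 ± 0.18 (SD, n = 3 each), and the difference was 0.63 (95% interval -0.18 to 1.44, limma adjusted p = 0.361). It was 0.35 without lamina propria pool 2 and 1.01 without pool 1. Its values in lamina propria pool 1 and in marrow pools 1 and 3 lay below the median over all probe sets of their arrays.

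Of the effectors only Bak1 was measured. BAK, once activated, forms pores in the outer mitochondrial membrane. Bak1 read 5.79, 6.03 and 5.62 in the lamina propria, against 7.22, 6.80 and 5.18 in the bone marrow. Here the marrow pools spread more, with a SD of 1.08 against 0.21 in the lamina propria, and all lamina propria pools lay between marrow pool 3 and marrow pool 2. The difference was -0.58 (95% interval -1.75 to 0.59, limma adjusted p = 0.461). It was -1.19 without marrow pool 3 and -0.17 without marrow pool 1.

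Among the BH3-only genes, Bbc3 lay above the marrow in every pool. PUMA, its product, binds all pro-survival family members and is a classical target of p53. Bbc3 read 6.23, 6.30 and 5.67 in the lamina propria, against 5.44, 5.20 and 5.63 in the bone marrow, with pool 3 only slightly above the highest marrow pool. Lamina propria pools averaged 6.07 ± 0.35 and marrow pools 5.42 ± 0.21 (SD, n = 3 each), and the difference was 0.64 (95% interval 0.06 to 1.23, limma adjusted p = 0.356). Without pool 3 it was 0.84 (limma adjusted p = 0.0252), together with 24.1% of all genes called higher, and pool 3 alone gave 0.25. Genes of its marrow level, 5 to 6, had a median of 0.44 and 0.40 in pools 1 and 2, where Bbc3 differed by 0.81 and 0.88.

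Pmaip1 encodes NOXA, which binds mainly MCL1 and is likewise a p53 target. It read 6.07, 6.24 and 5.69 in the lamina propria, against 5.57, 5.69 and 5.62 in the bone marrow. All lamina propria pools were higher, pool 3 by the narrowest of margins. The difference was 0.37 (95% interval -0.14 to 0.88, limma adjusted p = 0.368). Without pool 3 it was 0.53 (limma adjusted p = 0.0396), together with 24.1% of all genes called higher. In pool 1 Pmaip1 differed by 0.44, the median of genes of its level, and in pool 2 by 0.61. In pool 3 it differed by 0.06.

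Bcl2l11 encodes BIM, which removes B cells with failed or self-reactive receptors. It read 5.37, 8.57 and 6.73 in lamina propria pools 1, 2 and 3, against 5.56, 6.22 and 6.07 in the bone marrow pools. Pool 2 stood far above all other arrays, pool 3 moderately above the marrow and pool 1 below it. Lamina propria pools averaged 6.89 ± 1.61 and marrow pools 5.95 ± 0.34 (SD, n = 3 each), and the difference was 0.94 (95% interval -0.75 to 2.62, limma adjusted p = 0.428). Leaving out lamina propria pool 2 reduced it to 0.10, and leaving out pool 1 gave 1.70. Pools 1 and 2, which shared the shift of most genes, were 3.20 log2 units apart for Bcl2l11. The value of pool 1 lay below the median of 5.48 over all probe sets of its array.

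Bid, which caspase-8 cleaves to join the receptor route to the mitochondrial one, read 4.94, 4.71 and 4.58 in the lamina propria, against 4.92, 4.96 and 4.38 in the bone marrow. All 6 values lay below the median of their arrays and the tissues overlapped. The difference was -0.01 (95% interval -0.57 to 0.56, limma adjusted p = 0.989). At so low a signal a change of the transcript could have gone unseen.

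**Figure D3:**
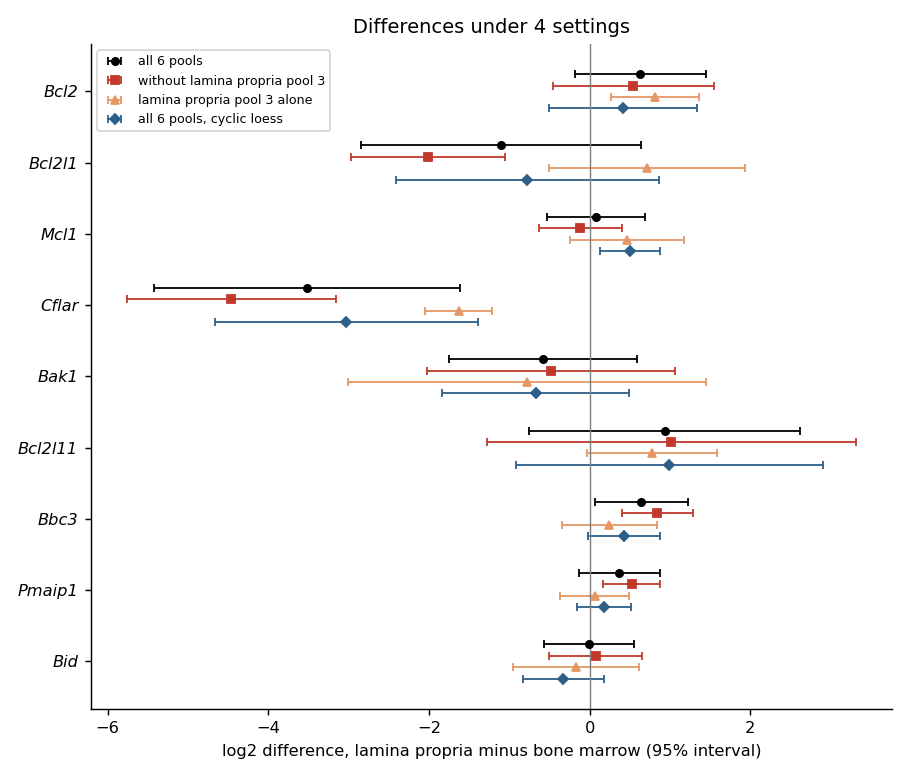
Log2 differences, lamina propria minus bone marrow (x axis), with 95% intervals for the 9 genes under 4 settings: all pools, without lamina propria pool 3, with pool 3 as the lone lamina propria array, and all pools after cyclic loess scaling. Cflar lies left of 0 under each of the 4, from -4.46 to -1.63, while Bcl2l1 lies on either side, from -2.01 to 0.72.

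Pool 3, the lamina propria array most like the marrow arrays, lay above all 3 marrow pools for 6 of the 9 genes, inside their range for Bak1 and Bid, and below it for Cflar. Over all genes, 24.8% lay above, 48.5% inside and 26.7% below. The genes above were Bcl2, Bcl2l1, Mcl1, Bcl2l11, Bbc3 and Pmaip1, with differences of 0.81, 0.72, 0.46, 0.78, 0.25 and 0.06 from the marrow mean. Both pro-survival and pro-death genes were thus among them. For Bcl2l1, Bbc3 and Pmaip1 the margin over the highest marrow pool was under 0.1, and 1 array gives no measure of its own spread. In pool 1, 2 genes lay above, 3 inside and 4 below the marrow range, against 59.7%, 16.2% and 24.1% of all genes. In pool 2 the counts were 4, 3 and 2, against 58.4%, 16.4% and 25.2%.

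**Figure D4:**
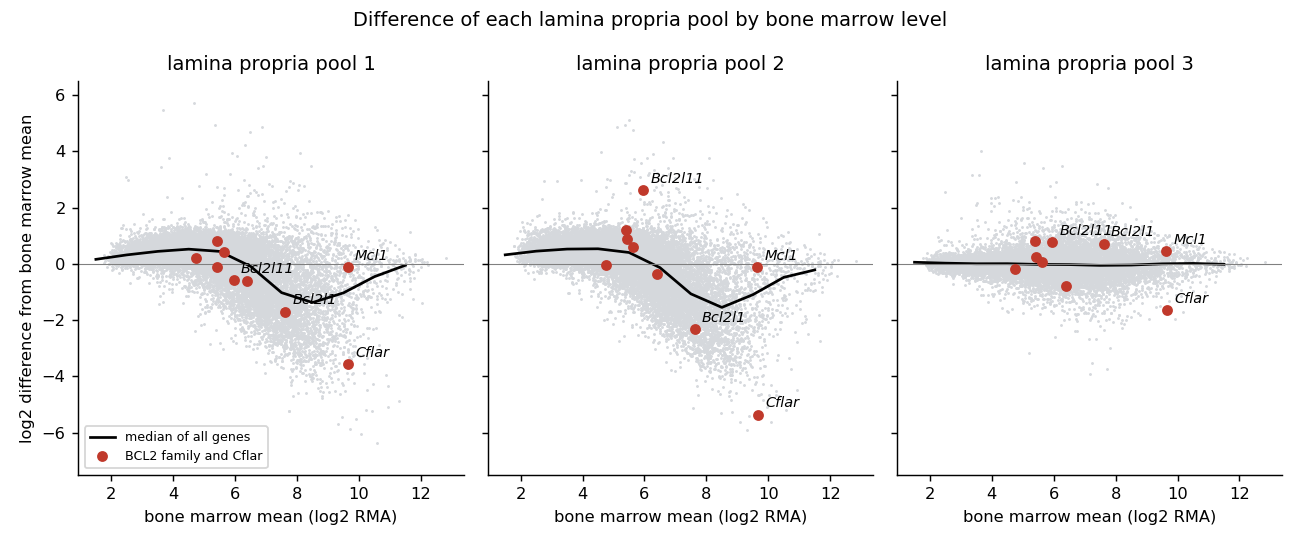
Difference of each lamina propria pool from the bone marrow mean (y axis, log2) by bone marrow mean (x axis, log2 RMA) for all 19938 genes (grey), their median per log2 unit of level (black line, units with at least 20 genes) and the 9 genes (red). The line dips at levels of 7 to 10 in pools 1 and 2 and stays near 0 in pool 3, and Cflar lies below it in each pool.

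The genes whose pattern over the 6 arrays came closest to that of Cflar were Tasor, Papola, Capsl, Slc30a5 and Cdc123, with root mean square distances of 0.228, 0.426, 0.504, 0.521 and 0.543 log2 units between centred values. Tasor, a subunit of the HUSH silencing complex, read 4.42, 3.16 and 6.60 in the lamina propria, against 8.40, 8.32 and 8.72 in the bone marrow. Like Cflar, it was lowest in pool 2 and closest to the marrow in pool 3. In pool 2 all 5 genes lay below the median of 5.47 over all probe sets of that array. Tasor also lay below the median of 5.48 in pool 1, so the size of its gap is uncertain. For Bcl2l11 the nearest were Snord37, Rrs1, Rnf125, Snrpa1 and D16Ertd472e, at 0.201, 0.331, 0.332, 0.365 and 0.37. All 5 peaked in lamina propria pool 2, as Bcl2l11 did. Snord37 lay below the median of its array on all 6 arrays, and Rnf125 in lamina propria pool 1 and every marrow pool, where signal over background is small. The shift of lamina propria pools 1 and 2 enters these distances, which describe these 6 arrays only.

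Further genes of the pathway were taken from 4 lists, of which no member passed over all genes. Of the other BCL2 family members, 11 of 14 listed were measured, 10 with a positive difference, where 67.6% of all genes had one. Their median difference was 0.30, against 0.22 over all genes and 0.30 among genes at a marrow level of 5 to 6. In every pool 3 of 11 lay higher and 0 lower, where 14.8% of all genes lay higher and 7.27% lower in every pool. These 3 were the BH3-only genes Hrk and Bmf, at 0.52 (95% interval -0.04 to 1.08) and 0.11 (95% interval -0.31 to 0.53), and Bcl2l2, which encodes the pro-survival BCL-W, at 0.29 (95% interval -0.15 to 0.72). In pool 3 alone the median of the 11 was 0.10.

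Downstream, among apoptosome genes, caspases and inhibitors of apoptosis proteins, 12 of 16 measured genes had a negative difference and the median was -0.41. Of all genes, 67.6% had a positive difference. However, Apaf1, Casp2, Diablo, Xiap and Aifm1 lay at a marrow level of 7 to 8, and Cycs, Birc2, Birc3 and Birc6 at 8 to 9. All genes at these levels had median differences of -0.69 and -0.97. The rest of the list lay at 5 to 6 or 6 to 7, with medians of 0.30 and -0.06. None of the 16 lay higher and 2 lay lower in every pool, against 14.8% and 7.27% of all genes. Xiap, a direct inhibitor of caspases, read 3.75, 4.52 and 7.33 in the lamina propria, against 7.60, 7.38 and 8.33 in the bone marrow, a difference of -2.57 (95% interval -4.56 to -0.59, limma adjusted p = 0.356). Birc6, a very large ubiquitin ligase of the same class, differed by -1.76 (95% interval -3.003 to -0.53, limma adjusted p = 0.343). Pool 3 lay only 0.44 and 0.43 below the marrow mean for these genes, and pools 1 and 2 held most of the gap. For Xiap, pools 1 and 2 lay below the medians of 5.48 and 5.47 over all probe sets of their arrays. The size of its gap is therefore uncertain. Genes at their marrow levels, 7 to 8 for Xiap and 8 to 9 for Birc6, had median differences below 0 in pools 1 and 2, of -1.02 and -1.07 at the first level and -1.38 and -1.55 at the second. The median of the 16 was -0.99 in pool 1, -0.36 in pool 2 and -0.14 in pool 3.

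On the death receptor side, 8 of 13 measured genes had a positive difference, a share of 61.5% against 67.6% of all genes. Their median was 0.32, against 0.22 over all genes, and 0.36 and 0.30 at marrow levels of 4 to 5 and 5 to 6. In pool 3 alone the median of the 13 was 0.03. Ripk3, a kinase of necroptosis, averaged 5.92 ± 0.11 in lamina propria pools and 5.56 ± 0.03 in marrow pools (SD, n = 3 each), and differed by 0.36 (limma adjusted p = 0.359). Fasl, the ligand of the receptor Fas, differed by 0.32 (limma adjusted p = 0.378), with every value below the median of its array. Both lay higher in every lamina propria pool, a share of 2 in 13 that is near the 14.8% of all genes, and none of the 13 lay lower in every pool.

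Upstream regulators gave differences of both signs, with 6 of 14 positive, against 67.6% of all genes, and a median of -0.13. However, all but Pim2 lay at marrow levels between 6 and 11. All genes at 6 to 7, 7 to 8, 8 to 9, 9 to 10 and 10 to 11 had medians of -0.06, -0.69, -0.97, -0.77 and -0.43. Il7r, the interleukin 7 receptor chain whose signal supports early B cells, read 6.29, 8.35 and 8.45 in the lamina propria, against 10.02, 9.997 and 10.46 in the bone marrow. Rel, an NF-kB subunit that drives Bcl2l1 and other survival genes in mature B cells, read 10.54, 9.98 and 10.64 in the lamina propria, against 9.17, 9.06 and 9.16 in the bone marrow. Neither overlapped between the tissues, and for Rel pool 3 lay furthest from the marrow. The kinase Pim2 and Tnfrsf13c, the receptor for the survival factor BAFF, lay higher in every pool, at 0.69 (95% interval 0.12 to 1.27) and 0.31 (95% interval -0.12 to 0.74). Thus 3 of 14 lay higher and 1 lower in every pool, against 14.8% and 7.27% of all genes. Limma's adjusted p was 0.285 for Il7r, 0.226 for Rel, 0.356 for Pim2 and 0.372 for Tnfrsf13c.

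Among genes of the labelled B lineage, the brightest were close in both tissues, with the surrogate light chain gene Vpreb1 at 11.77 ± 0.14 in lamina propria pools and 11.82 ± 0.03 in marrow pools, and Igll1 at 10.69 ± 0.48 in lamina propria pools and 10.70 ± 0.97 in marrow pools (SD, n = 3 each). Rag2, which with Rag1 encodes the recombinase, read 5.67, 5.75 and 6.06 in the lamina propria, against 7.76, 8.49 and 8.28 in the bone marrow. Rag1 differed by -1.05. Both lay lower in every lamina propria pool, as did 7.27% of all genes, and they were the only 2 of the 9 measured B lineage markers to do so. Of the 9 measured B lineage markers 8 had a negative difference, and their summed linear level ran from 9780 to 10387 in lamina propria pools and from 10325 to 14124 in marrow pools. Over all genes, 67.6% had a positive difference. The B lineage markers, however, had marrow means from 7.48 to 11.82 and a median difference of -0.23. All genes at marrow levels of 7 to 8, 8 to 9, 9 to 10, 10 to 11 and 11 to 12 had medians of -0.69, -0.97, -0.77, -0.43 and -0.14. Genes at marrow levels of 3 to 4, 4 to 5 and 5 to 6 had medians of 0.33, 0.36 and 0.30. At the first 2 levels the 10th percentile was 0.08 and 0.05. Median differences were 0.43 for T cell, 0.45 for epithelial, 0.42 for macrophage, 0.55 for stromal, 0.29 for plasma cell and 0.03 for granulocyte markers. T cell markers were positive for 9 of 9 genes, with sums of 350.4 to 425 in lamina propria pools and 277 to 330 in marrow pools. Epithelial markers were positive for 12 of 12, with 657 to 808 in lamina propria pools and 511 to 523 in marrow pools. Macrophage, monocyte and dendritic markers were positive for 8 of 10, with sums of 402 to 611 in lamina propria pools and 333 to 445 in marrow pools. Stromal and endothelial markers were positive for 9 of 10, with 680 to 839 in lamina propria pools and 694 to 781 in marrow pools. Plasma cell markers were positive for 5 of 7, with 455 to 1222 in lamina propria pools and 603 to 797 in marrow pools. Granulocyte markers were positive for 5 of 10, with 347 to 482 in lamina propria pools and 400.2 to 1203 in marrow pools, of which pool 2 was highest. All of these cells express genes of the BCL2 family, and their part in the differences was not tested. In pools of sorted cells, fewer cells of a type and less RNA per cell cannot be told apart.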

How the data were processed

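RNA of reporter-positive cells from 3 lamina propria and 3 bone marrow pools was taken up in Trizol, and between 4.5 and 47 ng of it were amplified for 1 array per pool, per the labels' protocols. Per the submitters' processing notes, the deposited log2 values come from RMA as run by the authors with Affymetrix Expression Console (version 1.3.0.187). The sources used here give neither the RMA settings nor the RNA amount of each pool. Values were used as deposited. Of 35556 probe sets, 21789 had 1 gene symbol in the platform's gene table, and 19938 genes remained, each represented by its probe set with the highest mean. Listed genes with no such probe set were not analysed here.

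Lamina propria minus bone marrow was fitted with limma 3.58.1 in R 4.3.3 (lmFit and eBayes, two-sided, no block), with p-values adjusted by Benjamini-Hochberg across all genes and called at 0.05. Intervals are 95% intervals from moderated variances. Each pool is 1 replicate, so p-values measure the spread between pools, and an exact test of 3 against 3 cannot go below 0.1. The number of arrays limits the precision. The fit was tested on simulated data. Summed marker levels are sums of 2 to the power of the log2 value. Genes of the further lists were named if the tissues did not overlap (up to 4, by size of the difference), markers if among the 2 highest of their list, and genes alike in pattern if among the 5 nearest to the genes with the largest negative and positive difference. Rag1 and Rag2, the recombinase genes, were named outside this rule. The genes, lists and tests were chosen with earlier results of these data known. The alternatives comprised a block for pool number, robust variances with an intensity trend, weights for arrays, a filter on dim genes (at least 6 in 3 or more arrays), 3 scalings, 2 other treatments of several probe sets, a threshold of 0.01 and leaving out arrays. Figures were drawn with matplotlib 3.10.9.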

Additional observations from a re-analysis of the deposited data

How the results depend on the processing

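Over all genes, limma called 0 at an adjusted p under 0.05 and 2728 at an unadjusted p under 0.05. Leaving out 1 array gave counts from 0 to 7222, the highest without lamina propria pool 3 (4806 higher, 2416 lower). Estimated array weights, which gave that pool 0.15, called 5586 genes (3368 higher, 2218 lower), the intensity trend with robust variances 40, and the use of all probe sets 1. With the pool number as a replicate block 16 genes were called, and Cflar had an adjusted p of 0.0658. The labels do not say that the numbers pair the samples. Deviations of same-numbered pools correlated at 0.131, 0.051 and 0.226, and with 3 pools per tissue this cannot decide whether they do. The dim gene filter, the 3 scalings, averaged probe sets and a threshold of 0.01 left the count at 0. Among the 9 genes, array weights also passed Cflar (-4.04, adjusted p = 0.0152), Bcl2l1 (-1.57, adjusted p = 0.043) and Bbc3 (0.84, adjusted p = 0.0318). Directions turned for Bcl2l1 in pool 3 alone (0.72), and for the small differences of Mcl1 and Bid. Mcl1 was -0.030 with array weights, -0.019 with median centring and ran from -0.11 to 0.18 with 1 array left out, and Bid ran from -0.19 to 0.10. The cause was not tested. Scaling moved the median of all genes by -0.21 with cyclic loess, -0.11 with quantile normalization and -0.10 with median centring. Bcl2, Bbc3, Pmaip1 and Bid had no value under the filter. Bid, Bcl2, marrow Bbc3 and Cflar in lamina propria pool 2 lie near or below the array medians, where signal over background limits what can be seen. So do Bcl2l1 and Xiap in that pool, Bcl2l11 and Xiap in lamina propria pool 1, and Bak1 in marrow pool 3. The same holds for Tasor in lamina propria pools 1 and 2, and for Fasl and Snord37 throughout.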
